A study of Mus musculus with 8 samples.

Results

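Hey2, Irx4, Mycn, Myc and Prdm16 encode transcription factors that mark or build the ventricular wall, and their RNA was followed in the ventricles of mouse embryos that lack Pkn2 in cardiomyocytes. Pkn2 encodes protein kinase N2. These 5 genes were taken by name out of the 55291 gene symbols counted, and Hey2 was selected on its lower level in the knockout libraries. Its difference between the groups is therefore a description and was not tested. No measured value is given as the reason for the other 4, although earlier results of these data were known when they were named. Bulk RNA-seq had been made at E10.5 from ventricular tissue of Pkn2 fl/fl embryos carrying XMLC2-Cre (cKO, n = 4) and of Pkn2 fl/fl littermates without Cre (control, n = 4), on a C57BL/6N background. Both groups carry the floxed alleles, and only the cKO embryos carry Cre. XMLC2-Cre is active in cardiomyocytes, so that endocardial, epicardial and other cells of the ventricle keep Pkn2. Each library is 1 biological replicate, and the study's methods take 1 mouse or embryo as the unit, without mention of pooling for these libraries. Total counts ran from 47559845 to 56197203 in cKO and from 47653972 to 56660938 in control libraries. Pkn2 itself was at 77.6 to 84.3 CPM (counts divided by TMM-scaled library totals) in cKO and at 133 to 153 CPM in control libraries, so that the cKO libraries held 56.3% of the control level. The RNA was that of a myocardium in both groups, since the 16 genes of a cardiomyocyte list summed to 43411 to 46700 CPM in cKO and 43614 to 48172 CPM in control libraries, with none at 0.

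At this stage the ventricular wall consists of an outer compact layer, in which cardiomyocytes divide quickly, and of inner trabeculae, whose cardiomyocytes are further differentiated. Hey2 is a basic helix-loop-helix repressor of the Hairy and Enhancer of split family that marks the compact layer and is a target of Notch signaling. Irx4 is an Iroquois homeodomain factor that marks ventricular as opposed to atrial myocardium. Mycn and Myc are paralogous basic helix-loop-helix leucine zipper factors that dimerize with Max and drive growth and division, and Mycn is the one known to be needed for compact layer growth. Prdm16 is a zinc finger factor with a PR domain that supports compact myocardial fate.

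The stretches in front of Hey2, Irx4 and Mycn are shown, which had the lowest log2 fold changes of the 5 genes. Prdm16, also lower in mean level in cKO ventricles (94.3% of control), is not shown. The bases are from the RefSeq promoter table (build GRCm38.p6), on the strand of the gene and 5′ to 3′, and end just before the gene as the deposited positions place it. They lie at chr10:30842802-30843033 (minus strand, Hey2), chr13:73260247-73260478 (plus strand, Irx4) and chr12:12941915-12942086 (minus strand, Mycn). Capitals mark a match to GTGGGAA, the sequence bound by the Notch effector RBPJ, read on the opposite strand.
Hey2: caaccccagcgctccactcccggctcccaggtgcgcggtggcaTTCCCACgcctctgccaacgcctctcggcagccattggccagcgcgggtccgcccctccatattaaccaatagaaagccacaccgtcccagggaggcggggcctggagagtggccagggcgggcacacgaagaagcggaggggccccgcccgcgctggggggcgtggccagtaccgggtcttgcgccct
Irx4: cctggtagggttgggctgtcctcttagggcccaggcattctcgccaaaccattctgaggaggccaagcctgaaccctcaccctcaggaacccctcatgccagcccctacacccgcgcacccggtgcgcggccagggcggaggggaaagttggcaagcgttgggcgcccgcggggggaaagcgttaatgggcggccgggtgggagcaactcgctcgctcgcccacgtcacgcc
Mycn: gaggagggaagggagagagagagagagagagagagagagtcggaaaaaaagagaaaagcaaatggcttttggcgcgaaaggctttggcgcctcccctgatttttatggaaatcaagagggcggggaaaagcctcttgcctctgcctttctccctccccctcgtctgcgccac

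The match in front of Hey2 began 207 bases before its RefSeq start. Both strands of the 250 bases before each start were searched for 4 motifs, none of which overlapped another there. GTGGGAA was present in 5.42% of the 32851 promoters of the table, and CACGTG, the E-box of Myc and Mycn with Max, in 6.02%. AGGTGTGA, a T-box motif, was in 1.12% of them, and AGATAA, to which GATA factors bind, in 9.99%. The windows of Irx4, Mycn and Prdm16 held none of the 4 motifs, and that of Hey2 held GTGGGAA alone. A match describes letters, not binding. The stretches printed were 71.1% (Hey2), 68.1% (Irx4) and 54.1% (Mycn) G and C.

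Hey2 (ENSMUSG00000019789.9, GRCm38 chr10:30832359-30842801, minus strand) was measured at 71.1, 75.1, 79.2 and 83.0 CPM in the cKO libraries and at 102, 108, 106 and 107 CPM in the control libraries. Each cKO library was below each control library. The means were 77.1 ± 5.11 and 106 ± 2.44 CPM (SD, n = 4 each), which puts cKO at 72.9% of control, a log2 fold change of −0.46 with a standard error (SE) of 0.058. With any single library left out, this log2 fold change lay between −0.49 and −0.41. Of all 26820 genes tested, 11.3% had a lower log2 fold change.

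Irx4 (ENSMUSG00000021604.15, chr13:73260479-73269608, plus strand) was measured at 104, 118, 119 and 101 CPM in cKO libraries 1 to 4 and at 133, 130, 128 and 134 CPM in control libraries. The groups did not overlap, and cKO libraries 1 and 4 were the lowest. The cKO mean of 110 ± 9.14 CPM was 84.2% of the control mean of 131 ± 2.74 CPM (SD, n = 4 each). The log2 fold change was −0.25 (SE 0.061), and its adjusted p of 0.0729 (edgeR quasi-likelihood test, Benjamini-Hochberg over all genes tested) missed the threshold of 0.05. Without cKO replicate 3, one of the libraries nearest to control, it was −0.28 with an adjusted p of 0.0239, and without cKO replicate 4 it was −0.20 (adjusted p = 0.133). DESeq2 gave −0.24 with an adjusted p of 0.0109, and edgeR without a filter on low counts gave an adjusted p of 0.0206. The range of adjusted p over the 18 alternatives was 0.0109 to 0.263, and the log2 fold change stayed negative in each.

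Mycn (ENSMUSG00000037169.15, chr12:12936093-12941914, minus strand) was measured at 51.5, 61.9, 56.8 and 72.4 CPM in cKO libraries 1 to 4. The control libraries lay close together, at 74.1, 71.4, 73.8 and 74.2 CPM. Of the cKO libraries, 3 were below every control library, and replicate 4 lay among the controls. The cKO mean of 60.6 ± 8.89 CPM was 82.6% of the control mean of 73.4 ± 1.32 CPM, giving a log2 difference of −0.27 (SE 0.081) that missed the threshold (edgeR, adjusted p = 0.130). That value depended on cKO replicate 4: without it the log2 fold change was −0.36 (adjusted p = 0.0112). Without cKO replicate 1, the lowest library, it was −0.20 (adjusted p = 0.365). DESeq2 gave −0.27 with an adjusted p of 0.0455, and edgeR without a filter 0.0274, within a range of 0.0112 to 0.398 over the 18 alternatives.

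Myc (ENSMUSG00000022346.16, chr15:61985391-61990374, plus strand) had the opposite direction, and it varied most among cKO libraries, at 34.7, 20.6, 15.9 and 44.6 CPM in replicates 1 to 4. The control libraries held 16.7, 14.1, 18.0 and 17.1 CPM. Replicates 1, 2 and 4 of cKO were above every control library, and replicate 3 lay among the controls. The cKO mean of 28.9 ± 13.1 CPM was 176% of the control mean of 16.5 ± 1.69 CPM, a log2 fold change of 0.81 (SE 0.22) with an adjusted p of 0.104 by edgeR. Without cKO replicate 3 it was 1.02 (adjusted p = 0.00816), and without cKO replicate 4 it was 0.53 (adjusted p = 0.224). Over the 18 alternatives the adjusted p ran from 0.00075 (no filter on low counts) to 0.424, and the log2 fold change was positive in each.

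Prdm16 (ENSMUSG00000039410.16, chr4:154316125-154636866, minus strand) was measured at 35.8, 32.1, 27.6 and 30.6 CPM in cKO and at 33.6, 33.8, 33.4 and 32.8 CPM in control libraries. The groups overlapped, since cKO replicate 1 was above every control library and the other 3 were below. By edgeR the log2 fold change was −0.08 (SE 0.074), with a 95% interval of −0.23 to 0.06 and an adjusted p of 0.728. Adjusted p ran from 0.519 to 0.927 over the 18 alternatives. Of the genes that overlap Prdm16 on the opposite strand, B230104I21Rik had 44 counts in the 8 libraries together, Gm13134 had 34 and Gm13133 had 24, against at least 1329 for Prdm16 in any 1 library. TruSeq RNA v2 does not mark strand, so that reads from the overlaps could not be told apart. In the deposited positions, no gene overlapped the other 4.

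**Figure D1:**
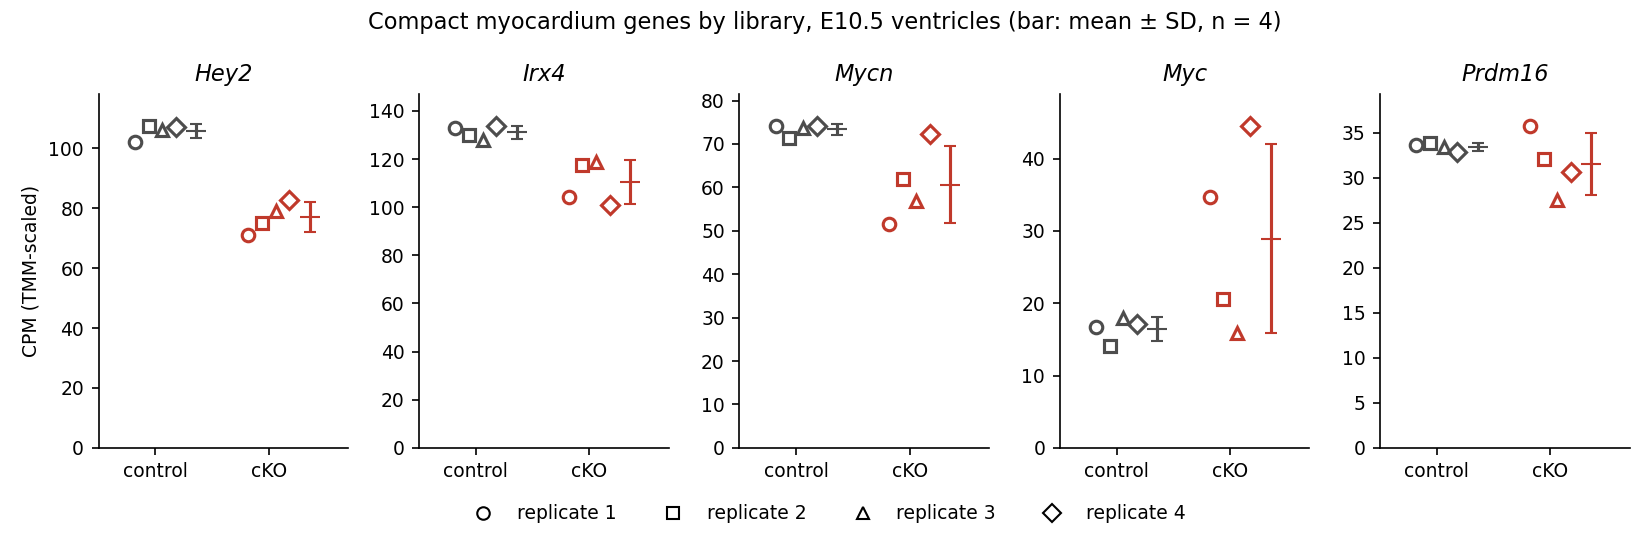
Level of each gene in each library, in CPM on a linear axis from 0, for control (grey) and cKO (red) ventricles. Marker shapes give the replicate number and bars the mean ± SD of 4 libraries. Hey2 and Irx4 have no overlap between groups, Mycn of cKO replicate 4 and Myc of cKO replicate 3 lie among the controls, and Prdm16 lies on both sides of them.

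None of the 4 genes that could be tested was called by edgeR at an adjusted p of 0.05, against 0.858% of all genes tested (0.343% lower and 0.515% higher in cKO). At an unadjusted p under 0.05 there were 3 of the 4 (Irx4, Mycn and Myc), against 12.8% of all genes. DESeq2 called Irx4 and Mycn, and limma on log2 TPM called none of the 4 with either pseudocount. Groups without overlap were found in 6.91% of all genes tested, with cKO below control in 3.77%, and among the 4 genes in Irx4 alone. The cKO libraries were less alike than the control libraries for each of the 5 genes. The reverse held for Pkn2, whose coefficient of variation was 3.79% in cKO and 6.83% in control. The share of all genes with either order was not computed, so that the order cannot be called particular to the 5 genes. Pairs of whole libraries also differed most in cKO. Their chi-square per degree of freedom reached 39.1 in cKO (replicates 3 and 4) and 21.3 in control (replicates 1 and 3). The ranges overlapped, since cKO replicates 2 and 3 had 14.5. The coefficient of variation in cKO against control was 6.63% and 2.30% for Hey2, 8.28% and 2.09% for Irx4, 14.7% and 1.81% for Mycn, 45.3% and 10.2% for Myc, and 10.8% and 1.24% for Prdm16. Counts ran from 679 (Myc) to 7235 (Irx4) for 1 gene in 1 library, at which counting alone gives 3.84% and 1.18%. The 1.24% of Prdm16 in control libraries, at 1629 to 1888 counts, was below what counting alone gives at such counts. The tissue is a mixture of cells, and fewer cells of a type cannot be told apart from less RNA per cell.

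**Figure D2:**
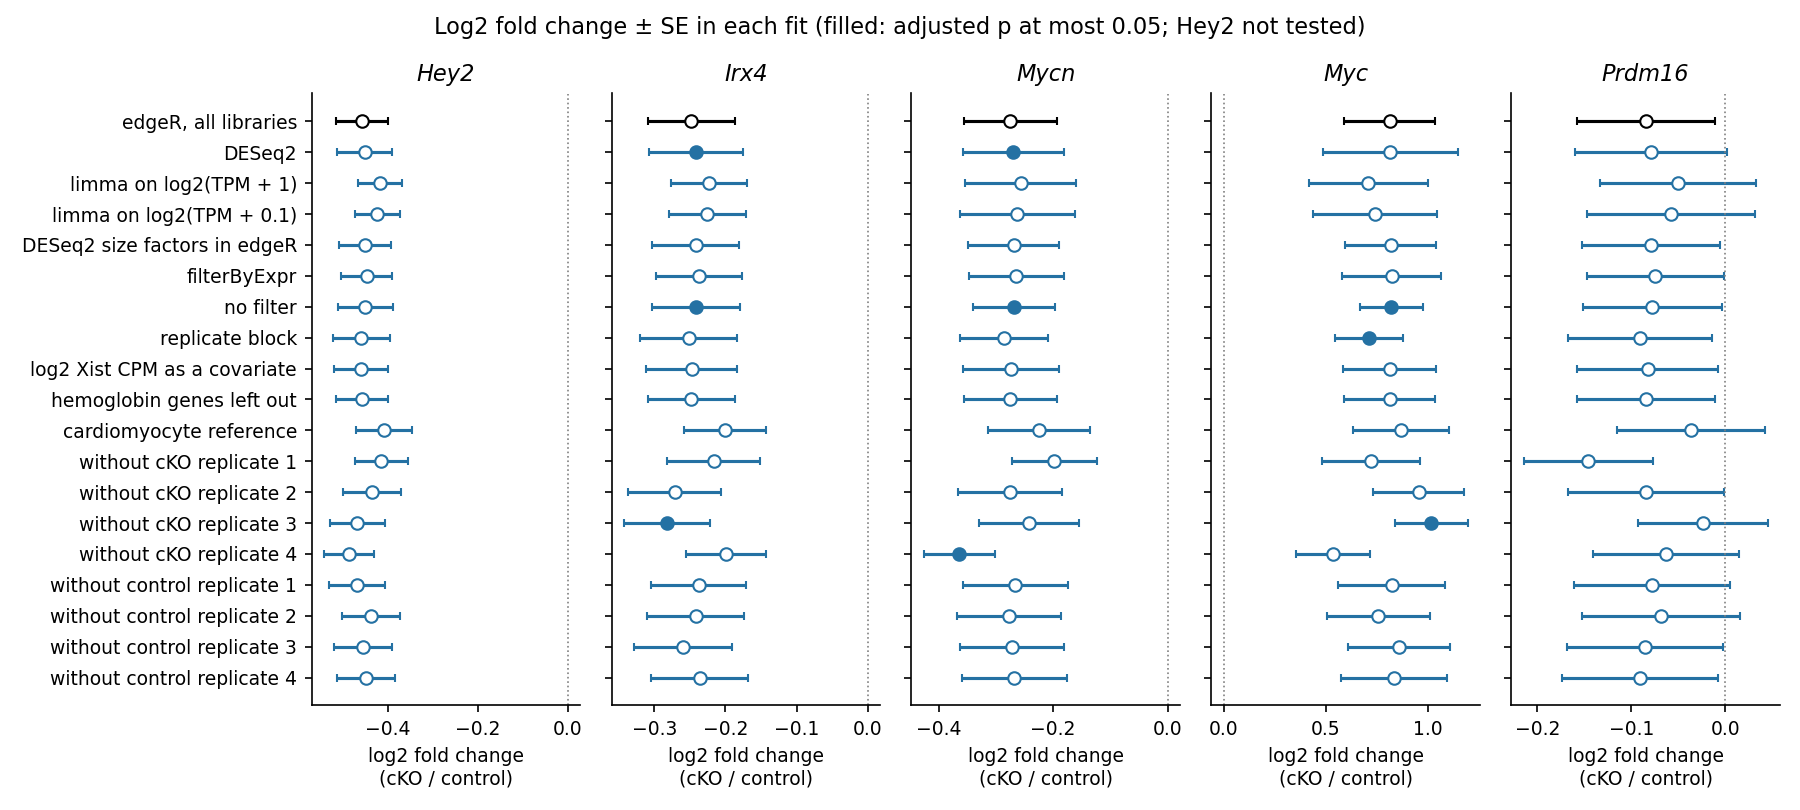
Log2 fold change (cKO over control) with its standard error for each gene under the edgeR fit on all libraries (black) and the 18 alternatives (blue), with the dotted line at 0. Filled points have an adjusted p of at most 0.05, and Hey2 was not tested. Irx4, Mycn and Myc each pass in 3 of the 18 alternatives, and Prdm16 in 0.

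On the deposited length-scaled measure (TPM), which allows levels to be compared between genes, the order was Irx4, Hey2, Mycn, Myc and Prdm16 in both groups. Irx4 stood at 75.2 ± 5.59 TPM in cKO and 87.8 ± 2.16 TPM in control (SD, n = 4 each), Hey2 at 54.3 ± 3.16 and 72.8 ± 3.14 TPM, and Mycn at 40.4 ± 6.31 and 48.0 ± 0.237 TPM. Myc followed at 24.2 ± 11.1 and 13.4 ± 1.23 TPM and Prdm16 at 6.75 ± 0.781 and 7.003 ± 0.307 TPM. In each of the 8 libraries every gene stood above the next in that order. The ranges of neighbors overlapped for one pair only, Mycn and Myc in cKO, where Mycn ran from 34.0 to 48.5 TPM and Myc from 13.1 to 38.0 TPM.

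Since Mycn and Myc are paralogs with the same partner, their TPM were also compared within each library. The ratio of Mycn to Myc was 1.22, 2.35, 2.82 and 1.28 in cKO libraries 1 to 4, and 3.47, 4.18, 3.34 and 3.50 in control libraries. The groups did not overlap. The mean log2 ratio was 0.84 ± 0.61 in cKO and 1.85 ± 0.14 in control, a difference of −1.01 (p = 0.0286 by a two-sided exact permutation test, whose smallest p with 4 against 4 this is). This p is not adjusted, and the ratio was chosen with earlier results of these data known. The share of gene pairs whose ratios separate the groups was not computed. With single libraries left out the difference was −1.23 to −0.82. Without any 1 of the 4 control libraries the exact permutation p was 0.0571, above the threshold of 0.05, and without any 1 of the cKO libraries it was 0.0286. The ratios of the groups did not overlap whichever library was left out. The sum of the paralogs was 64.6 ± 15.5 TPM in cKO and 61.4 ± 1.02 TPM in control, with the control range inside the cKO range of 50.2 to 86.5 TPM (exact permutation test, p = 0.886).

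**Figure D3:**
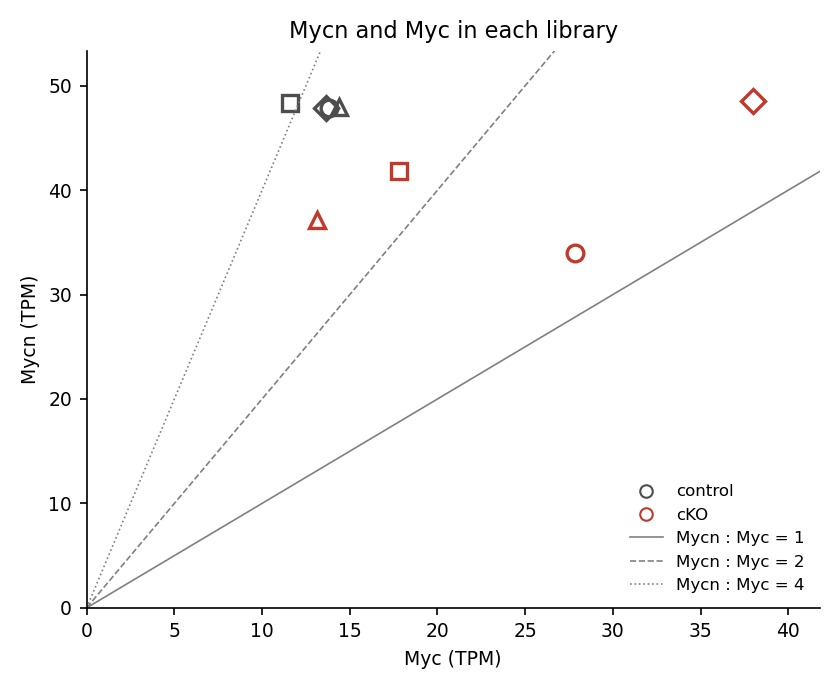
Mycn against Myc in each library, both in TPM on linear axes from 0, for control (grey) and cKO (red), with marker shapes for the replicates as in the plot of levels by library. Grey lines mark Mycn to Myc ratios of 1, 2 and 4. The controls lie between 3.34 and 4.18, and the cKO libraries between 1.22 and 2.82.

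Paralogs of the 5 genes were measured alongside them. Hey1 and Heyl, the other Hey repressors, differed from control by 0.08 and 0.25 on the log2 scale (edgeR, adjusted p = 0.803 and 0.606). Hey2 made up 68.4 to 72.7% of the summed Hey TPM in cKO and 76.9 to 78.9% in control libraries, without overlap. As Hey2 was selected on its lower level and makes up most of this sum, its share restates that selection and is a description. Irx1, Irx2, Irx3, Irx5 and Irx6 lay between −0.15 (Irx3) and 0.19 (Irx1), none of them called. Irx4 made up 41.1 to 48.7% of the summed Irx TPM in cKO and 51.7 to 52.5% in control libraries, again without overlap. Myc made up 25.8 to 44.6% of the summed Myc, Mycn and Mycl TPM in cKO and 19.2 to 22.9% in control libraries. Mycl was at 0.50 TPM in both groups, and Max, the common partner, had a log2 fold change of 0.00 (adjusted p = 0.993). Mecom, the nearest paralog of Prdm16, rose from 37.1 to 44.3 CPM in control to 46.8 to 56.8 CPM in cKO libraries (log2 fold change 0.38, SE 0.073, edgeR adjusted p = 0.0208). Its call was lost without cKO replicate 1 or without control replicate 1, 3 or 4, and its log2 fold change ran from 0.35 to 0.45 over the alternatives.

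Other compact layer genes were split in direction. Of 9 further genes of a compact myocardium list, 5 were lower and 4 higher in cKO. Their median log2 fold change was −0.01, beside −0.00085 for all genes tested. Rxra, the retinoid X receptor whose loss thins the compact wall, was the 1 called among them. It was at 61.8, 63.6, 62.9 and 70.2 CPM in cKO and at 71.9, 78.5, 79.1 and 83.2 CPM in control libraries (log2 fold change −0.27, SE 0.061, edgeR adjusted p = 0.0474). The cyclin genes Ccnd2 and Ccnd1 stood at 0.06 (adjusted p = 0.836) and 0.18 (adjusted p = 0.247) on that scale, and the frizzled receptors Fzd1 and Fzd2 had −0.01 (adjusted p = 0.992) and −0.17 (adjusted p = 0.442).

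In a list of ventricular genes, 8 of the 10 other than Hey2 and Irx4 were lower in cKO, with a median of −0.14, and 2 fell beyond the threshold. Hand1, a basic helix-loop-helix factor of the left ventricle, was at 67.1, 80.7, 73.4 and 58.3 CPM in cKO and 92.5, 99.1, 94.7 and 102 CPM in control libraries. Its log2 difference of −0.47 (SE 0.080, edgeR adjusted p = 0.0112) was close in size to the −0.46 of Hey2. Lbh, a transcriptional cofactor of limb bud and heart, fell from 607 ± 27.1 to 498 ± 37.8 CPM (SD), or by 0.28 on the log2 scale (adjusted p = 0.0465). Pln, which encodes phospholamban, had −0.38 (adjusted p = 0.0755). The most abundant ventricular genes differed less, with −0.12 for Myl2 (adjusted p = 0.528) and −0.01 for Myl3 (adjusted p = 0.969).

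Atrial and trabecular genes were split in direction. Of 14 atrial genes 8 were higher, with a median of 0.05, and 1 was called. Mybphl, a myosin binding protein of the atria and conduction system, was at 58.3, 54.1, 58.5 and 55.9 CPM in cKO and at 38.6, 40.4, 36.4 and 41.1 CPM in control libraries (log2 fold change 0.53, SE 0.059, edgeR adjusted p = 0.00062). The atrial light chains Myl7 and Myl4 had 0.09 (adjusted p = 0.603) and −0.07 (adjusted p = 0.768). Of 12 trabecular genes 7 were lower, with a median of −0.02 and none called. Nppa, which encodes atrial natriuretic peptide, had 0.20 (adjusted p = 0.351) and the cell cycle inhibitor Cdkn1c 0.00 (adjusted p = 0.998).

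**Figure D4:**
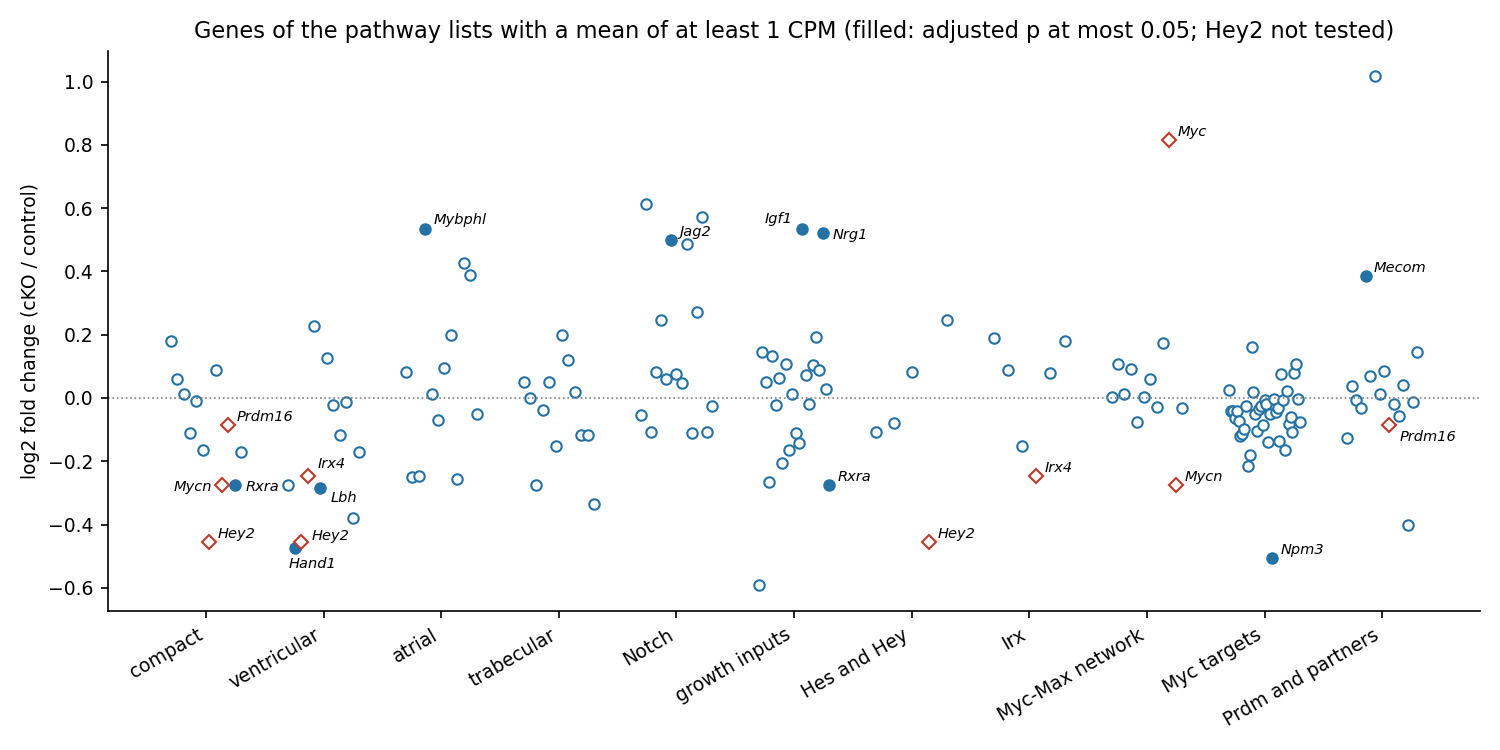
Log2 fold change (cKO over control) of single genes, 1 column per list, for genes with a mean of at least 1 CPM, in alphabetical order from left to right within a column. Red diamonds are Hey2, Irx4, Mycn, Myc and Prdm16, blue circles other genes, and filled symbols have an adjusted p of at most 0.05 (Hey2 was not tested). Myc at 0.81 lies far above the rest of its network, whose median without Mycn and Myc is 0.01, while Hand1 at −0.47 lies beside Hey2.

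A list of 15 genes of Notch signaling and of its targets other than Hey2 had a median of 0.08, with 10 higher and 5 lower. The ligand gene Jag2 rose from 15.5 ± 1.18 to 21.8 ± 2.82 CPM (log2 fold change 0.50, adjusted p = 0.0214 by edgeR). The endocardial ligand gene Dll4 averaged 27.5 ± 5.78 CPM against 18.0 ± 3.13 CPM in control (0.61, adjusted p = 0.0503), and the receptor gene Notch1 had 0.49 (adjusted p = 0.0693). Hes1 and Hey1, 2 other targets of the pathway, had −0.11 (adjusted p = 0.625) and 0.08 (adjusted p = 0.803), and Rbpj had −0.02 (adjusted p = 0.926). Mib1, which activates the ligands, had 0.05 (adjusted p = 0.825). No gene of the list was called lower. Of a list of endocardial and endothelial markers, 12 of 12 were also higher in cKO (median 0.36), and their part in the Jag2, Dll4 and Notch1 values was not tested. Of the 5 other Hes and Hey genes tested none was called, and Hes6, the most abundant of them, had −0.08 (adjusted p = 0.752).

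Growth signals that act on the compact layer were given by 24 genes, of which 23 could be tested, 13 higher and 10 lower with a median of 0.03. Nrg1, the endocardial ligand of the ErbB receptors, was at 30.1, 29.0, 26.4 and 21.4 CPM in cKO and at 18.3, 20.1, 16.5 and 19.6 CPM in control libraries (log2 fold change 0.52, adjusted p = 0.0218 by edgeR). Nrg1 is expressed in the endocardium, whose markers were also higher in cKO, and their part in its rise was not tested. Igf1, an insulin-like growth factor, rose from 40.5 ± 2.71 to 58.6 ± 12.8 CPM (0.53, adjusted p = 0.0326), and Rxra above was the 1 called lower. The epicardial gene Aldh1a2, which encodes a retinoic acid synthase, had −0.59 (adjusted p = 0.0666).

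Downstream and beside Mycn and Myc, the 12 other genes of the Max network had a median of 0.01 and none was called. Of 39 genes that Myc proteins are known to raise, such as those of ribosome assembly and nucleotide synthesis, 32 were lower and 7 higher, with a median of −0.04 beside 50.2% lower over all genes tested. The median of all genes with a mean of at least 5 CPM was −0.02. By library, the mean of the 39 genes in log2 CPM, relative to control, was −0.12 to 0.03 in cKO. In control libraries it was −0.06 to 0.10, so that the groups overlapped. Npm3, a nucleolar histone chaperone, was the 1 called of the 39. It was at 42.8, 51.6, 52.6 and 37.5 CPM in cKO and at 68.2, 60.4, 59.7 and 73.3 CPM in control libraries (log2 fold change −0.51, edgeR adjusted p = 0.0221). The most abundant, Ldha and Npm1, had 0.16 (adjusted p = 0.502) and −0.05 (adjusted p = 0.847). The 16 further genes of the Prdm family and its partners were split 8 and 8, and Mecom was the 1 called. The corepressor gene Ctbp1 had −0.13 (edgeR adjusted p = 0.307) and the methyltransferase gene Ehmt2 had −0.03 (adjusted p = 0.891).

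Of the called genes in these lists, Mybphl kept its call in the 18 alternatives (adjusted p of at most 0.0495). Hand1 lost it without cKO replicate 1 or control replicate 4, and Npm3 without cKO replicate 1 or control replicate 1 or 4. Jag2 and Nrg1 lost theirs without cKO replicate 1 or control replicate 1, 3 or 4, and Igf1 without cKO replicate 1 or any 1 control library. Rxra lost its call in 6 of the 8 fits with a library left out and Lbh in 7 of 8, the exceptions being cKO replicates 3 and 4 for Rxra and cKO replicate 3 for Lbh. Of the 10 alternatives that kept every library, both limma fits on log2 TPM ended these 7 calls and that of Mecom. Filtering with filterByExpr and scaling to the cardiomyocyte genes also ended those of Lbh and Rxra, and log2 Xist CPM as a covariate that of Rxra. Xist had only 4 to 127 counts per library, so that this covariate rests on few counts. Over the alternatives the highest adjusted p of these 8 genes, Mecom among them, was between 0.218 (Hand1) and 0.290 (Igf1), and no direction changed. For Hand1 the log2 fold change ran from −0.54 to −0.39.

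Markers of other cells of the ventricle were set beside the 5 genes. Endocardial and endothelial markers were higher in cKO for 12 of 12 genes (median 0.36), and 5 were called (Emcn, Cdh5, Pecam1, Tie1 and Nfatc1, at 0.36 to 0.72). None of the list was called without cKO replicate 1, without any 1 control library or by limma on log2 TPM, and 2 were called without cKO replicate 4 and 10 by DESeq2, while the median stayed between 0.31 and 0.44. The 12 genes summed to 1740 to 2144 CPM in cKO and 1369 to 1616 CPM in control libraries, with none at 0. The mean of the list in log2 CPM, relative to control, was 0.50, 0.19, 0.20 and 0.52 in cKO libraries 1 to 4 and −0.14 to 0.07 in controls. The libraries with the higher means, cKO 1 and 4, were also those with the lowest Irx4 (104 and 101 CPM) and the highest Myc (34.7 and 44.6 CPM). Hey2 and Mycn did not follow that split, since both were lowest in cKO 1 and highest in cKO 4. The controls spanned only 128 to 134 CPM for Irx4 and 14.1 to 18.0 CPM for Myc, so that little can be read from their order. Control 3 had the lowest endothelial mean of the controls (−0.14), with their lowest Irx4 (128 CPM) and highest Myc (18.0 CPM). Taken relative to group means, Pearson r with the endothelial mean over the 8 libraries was −0.75 for Irx4 and 0.77 for Myc. It was −0.02 for Hey2, 0.13 for Mycn and 0.46 for Prdm16. The part of endothelial RNA in these differences was not tested.

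Of the 16 cardiomyocyte genes 12 were lower, with a median of −0.05 and none called by edgeR (Actc1, the most abundant, −0.05, adjusted p = 0.812), against 1 by DESeq2. Nkx2-5, a homeodomain factor of cardiac progenitors and cardiomyocytes, had the largest difference of the list, with a mean of 97.0 CPM in cKO and 121 CPM in control libraries that did not overlap (−0.32, adjusted p = 0.109). Relative to the mean of these 16 genes in the same library, Hey2 was at −0.53 to −0.27 in cKO and −0.06 to 0.06 in control libraries (log2 scale, control mean at 0). Irx4 was at −0.30 to −0.11 and −0.03 to 0.02. Mycn ran from −0.46 to 0.06 in cKO, Myc from −0.02 to 1.52 and Prdm16 from −0.25 to 0.14, each overlapping the controls. Of 9 epicardial genes 6 were lower, with a median of −0.09 and none called or at 0 (Krt19 0.38, Upk3b −0.20). Their sum ran from 393 to 589 CPM in cKO and from 500 to 533 CPM in control libraries. Their mean relative to control was lowest in cKO 1 (−0.42), the library with the lowest Hey2 and Mycn. It was highest in cKO 4 (0.31), the cKO library with the highest of both. The controls spanned −0.05 to 0.08 for the epicardial mean, 102 to 108 CPM for Hey2 and 71.4 to 74.2 CPM for Mycn. Little can be read from their order, in which replicate 2 had the lowest epicardial mean, the highest Hey2 and the lowest Mycn. The part of epicardial RNA in these values was not tested.

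**Figure D5:**
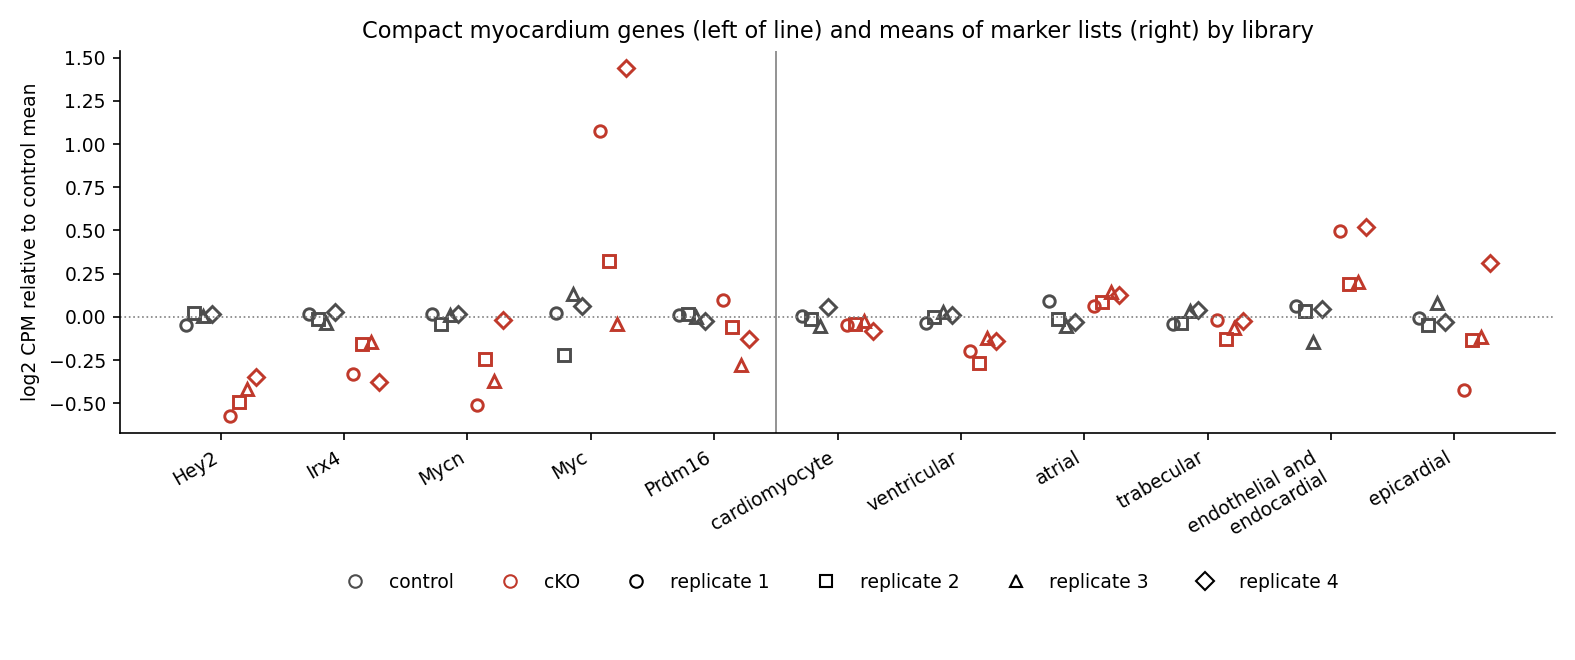
Log2 CPM relative to the control mean in each library, for the 5 genes (left of the line) and for the mean of the genes of 6 marker lists (right), with control in grey, cKO in red and marker shapes for the replicates. Myc reaches 1.44 in cKO replicate 4, the endothelial and endocardial mean is 0.19 to 0.52 in cKO, and the cardiomyocyte mean is −0.08 to −0.02.

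Among 11243 other genes with a mean of at least 5 CPM, those whose log2 CPM followed each of the 5 genes most closely within the groups were listed, as Pearson r over the 8 libraries, each taken relative to its group mean. They are the highest of many candidates over few libraries and are given as a description, without a test. For Hey2 they were Rassf3 (0.96), Zfp324 (0.96) and Cacfd1 (0.95), and for Irx4 Dnajc9, Snx7 and Nuf2 (each 0.98). For Mycn they were Map3k10, Ppp1r37 and Miga2 (each 0.98). For Myc they were Rell1 (0.997), Micall1 (0.99) and Trim3 (0.99), and for Prdm16 Adamts17 (0.99), Dlg5 (0.98) and Specc1 (0.96). None of these 15 genes was called between cKO and control.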

How the data were processed

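Reads counted for each gene symbol were deposited without normalization, and TPM, as deposited by the authors in another table with Ensembl identifiers and positions, are length-scaled. Each has 1 column per library. The submitters' processing notes name Trim Galore 0.6.7, HISAT2 2.2.1, StringTie 2.2.1, featureCounts and DESeq2, with GRCm39. Of 39078 matched symbols, 95.3% had a deposited position that started or ended within 1000 bases of the RefSeq GRCm38.p6 gene, so coordinates are given as GRCm38. The strand setting of the counting is not given in the sources used here. Read length is 150 bp in the labels and 100 bp in the series text.

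The 26820 genes whose counts summed to 8 or more were compared between cKO and control by edgeR 4.0.16 (TMM scaling, quasi-likelihood F) in R 4.3.3, with Benjamini-Hochberg adjustment and a threshold of 0.05, which called 138 genes higher and 92 lower. CPM used TMM-scaled totals, and log2 CPM a prior count of 2. SE was the log2 fold change over the root of F, and 95% intervals followed from it. For a list, log2 CPM was averaged over its genes in each library and set relative to the control mean. Alternatives used DESeq2 1.42.0, limma 3.58.1 on log2 TPM (pseudocounts of 1 and 0.1), other scalings, filters and covariates, and each library left out. The edgeR script was tested on simulated data. The spread of 4 libraries sets the precision.

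The 5 genes, the 20 lists and the tests were chosen with earlier results of these data known. Named were the 5 genes, their paralogs and overlapping genes, Pkn2, each called gene of a list, where under 2 were called its 2 genes of highest mean TPM, and the 3 genes most like each of the 5. Dll4, Hes1, Rbpj, Nkx2-5, Pln, Myl2, Myl3, Aldh1a2, Ccnd1, Ccnd2, Fzd1 and Fzd2 were added after their values were seen, and 1 gene under the rule is not reported here.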

Additional observations from a re-analysis of the deposited data

Results flagged for a closer look

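Mycn in control replicate 2 stood apart from the other controls, at 71.4 CPM against 73.8 to 74.2 CPM. The gap to its nearest neighbor was 0.853 of the range of the group, above Dixon's 95% critical value for 4 samples. Such gaps arise by chance in about 1 of 20 groups, and 12 groups were examined. The control range of Mycn was narrow, with a coefficient of variation of 1.81%, and the log2 fold change without that library was −0.28 beside −0.27 with all libraries.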

How the results depend on the processing

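The directions of the 5 genes and of the Mycn to Myc ratio held in every alternative. DESeq2 called Irx4 (−0.24) and Mycn (−0.27), and dropping the filter on low counts called Irx4 (−0.24), Mycn (−0.27) and Myc (0.82). With single libraries left out, log2 fold changes ran from −0.49 to −0.41 for Hey2, −0.28 to −0.20 for Irx4, −0.36 to −0.20 for Mycn, 0.53 to 1.02 for Myc and −0.15 to −0.02 for Prdm16, and the ratio's log2 difference from −1.23 to −0.82. The number of genes called was 230 with all libraries, 867 by DESeq2, 2 by limma on log2(TPM + 1) and 5 on log2(TPM + 0.1), 878 without a filter, and 67 to 744 with a library left out. Scaling to the 16 cardiomyocyte genes shifted the median of all genes to 0.05 and called 211 higher and 64 lower, against 138 and 92. The cause of these changes was not tested.

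Same-numbered libraries of the groups did not deviate together: the correlations of their deviations over 11244 genes were −0.25, −0.04, 0.06 and −0.18. With the replicate number as a block, 380 genes were called, Myc among them (0.71, adjusted p = 0.0403 by edgeR), and the ratio's difference was −1.01, for which 4 pairs cannot give an exact p under 0.125.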

Other observations

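Other lists of cells that ventricular tissue can hold were also measured. Macrophage markers were higher in cKO for 8 of 8 genes (median log2 fold change 2.05), and C1qb and C1qc were called (2.30 and 2.54), at a summed level of 9.29 to 37.1 CPM in cKO and 4.75 to 10.5 CPM in control libraries. Without cKO replicate 1, without control replicate 3 or 4 and by limma on log2 TPM neither macrophage gene was called, and the list's median was 1.30 without cKO replicate 1. Of 8 arterial endothelial genes 6 were higher (median 0.09) and Sox17 was called (1.22, adjusted p = 0.0205 by edgeR), while the most abundant, Gja5 and Nrp1, had −0.04 and −0.02. Of 10 cushion mesenchyme genes 6 were higher (median 0.11) and Vcan was called (0.36, adjusted p = 0.0416), with Col3a1 at 0.00. Both limma fits ended the Sox17 and Vcan calls, as did leaving out cKO replicate 1 or control replicate 1, 3 or 4, and that of Vcan was also lost without cKO replicate 2 or 4 or control replicate 2.

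The 7 erythroid genes were higher (median 0.28) with none called (Hbb-y 0.26, Hba-x 0.28), and their sums overlapped, at 1376 to 4845 CPM in cKO and 1513 to 4686 CPM in control libraries. Of 7 neural genes tested 2 were lower, of which Sox3 was called (−1.43, adjusted p = 0.0112 by edgeR). The Sox3 call was lost without control replicate 1 and by limma. Tubb3 had 0.48 and was not called, and 3 further genes were listed at 0 in every library. The 6 hepatic genes tested were lower (median −1.73) with none called (Apoa2 −0.25, Afp −3.65), at no more than 30.3 CPM in sum in any library. That sum was in control replicate 1, against 3.32 to 6.68 CPM in the other controls and 1.72 to 3.55 CPM in cKO. Without control replicate 1 the median was −0.94.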
